A study of Mus musculus with 13 samples.

Results

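The response of the mouse brain to a transient stroke after its microglia had been depleted was followed in 6 RNA-seq libraries of the 13 in the series. The 2 occluded libraries (tMCAO_MG_DE) were compared with the 4 sham libraries (sham_MG_DE) across all genes, and the libraries were chosen by their labels alone. Per the labels, all mice were male CX3CR1creER/+ :Rosa26iDTR/+ animals. These mice make a Cre recombinase that tamoxifen activates, driven by the Cx3cr1 gene, and a receptor for diphtheria toxin that Cre switches on. The number after Rosa in the genotype entry differs between most libraries, and all entries were taken as the same genotype on the assumption that the numbers are an entry error. All 13 libraries came from mice given 2 doses of tamoxifen at 7 to 8 weeks of age. After a further 30 days, sham_MG_DE and tMCAO_MG_DE mice received diphtheria toxin at 50 ng per g on 3 days, while sham_MG_CON (n = 3) and tMCAO_MG_CON (n = 4) mice received saline. In the tMCAO groups the middle cerebral artery was blocked on the right side with a filament for 60 min and then reperfused, and the sham groups had sham surgery. The age given for surgery, 6 to 8 weeks, cannot hold together with the age at tamoxifen and the 30 days that followed. Neither the brain region nor the time of sampling after occlusion was given in the sources used here. The toxin can kill every cell with a recombined Cx3cr1-driven allele, so brain border macrophages and some blood monocytes can be hit as well as microglia. Each library has its own identifier in the labels, and if these were not separate animals the p-values measure only the spread between libraries.

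Microglia are the resident phagocytes of the brain. After an ischaemic stroke they release cytokines such as interleukin-1, clear debris and signal to astrocytes, and astrocytes in turn become reactive, raising the intermediate filament gene Gfap and secreted proteins such as Serpina3n and Lcn2. Neurons and glia short of oxygen and glucose also switch on protein chaperones under heat shock factor 1, antioxidant enzymes under NRF2, and the IL-6 family genes that act through the transcription factor STAT3. The series title names a chain from the microglial interleukin-1 receptor antagonist (Il1rn) to the astrocytic chemokine Cxcl1 and neutrophil recruitment, so those genes are described with the rest.

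Total counts in these 6 libraries ran from 16657017 to 22080367. A filter on low counts left 16940 of 21056 genes for testing. Levels are given as CPM (counts scaled to library size with TMM factors) in replicate order, and changes as log2 fold changes ± standard error from edgeR's quasi-likelihood test, with Benjamini-Hochberg adjusted p-values and a threshold of 0.05. In a library, 3 counts correspond to 0.136 to 0.183 CPM. Microglial markers were low in all 6 libraries. Csf1r, the receptor for the growth factor that microglia depend on, stood at 7.57, 10.2, 15.97 and 6.100 CPM in sham_MG_DE and 6.08 and 8.51 in tMCAO_MG_DE, against 91.95, 93.4 and 92.8 in sham_MG_CON. The summed level of 20 homeostatic microglial genes was 70.5 to 145.9 CPM in sham_MG_DE, 104.1 to 121.1 in tMCAO_MG_DE and 532.7 to 557.2 in sham_MG_CON. In bulk RNA, fewer cells of a type and less RNA per cell cannot be told apart. The library sham_MG_DE 1 lay apart from the other depleted libraries on the first principal component (-5.04 against 31.9 to 48.0). It stood between them and the intact libraries, which lay at -34.6 to -20.7. Its summed level of 11 genes restricted to other tissues was 8.76 CPM against up to 119.8 in the other sham_MG_DE libraries and 64.3 to 64.6 in tMCAO_MG_DE. In the intact groups that sum was 1.61 to 2.82 CPM in sham_MG_CON and 6.01 to 8.53 in tMCAO_MG_CON. The neutrophil genes S100a8 and S100a9 were highest in sham_MG_DE 3 and sham_MG_CON 2.

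After depletion, occlusion changed 2106 of the 16940 tested genes (12.4%). Of these, 1116 rose (6.59%) and 990 fell (5.84%), and the median log2 fold change over all tested genes was -0.001. All counts of list members below are to be read against these shares. At least 2-fold changes numbered 358 among the rises and 119 among the falls, and the median log2 fold change was 0.67 among the rises and -0.54 among the falls. On FPKM, without the TMM scaling, limma called 1350 higher and 791 lower with a pseudocount of 0.1, and 1388 higher and 723 lower with a pseudocount of 1. DESeq2 on the counts called more falls than rises, 1269 higher and 1364 lower, so which direction held more calls depended on the tool. The number of calls rested on both occluded libraries. It was 523 without tMCAO_MG_DE 1 and 453 without tMCAO_MG_DE 2, each time with the remaining occluded library assumed to vary like the other groups. It was 1137 when only the 6 depleted libraries were fitted. The plot of levels by library shows the genes that carry the main groups.

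**Figure D1:**
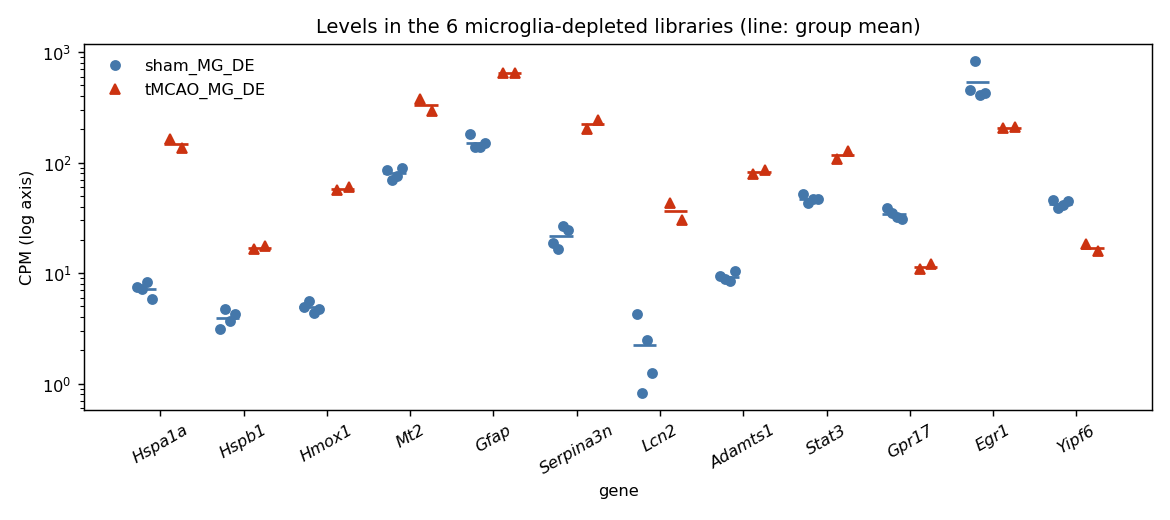
Level of 12 genes in CPM (log axis) in the 4 sham_MG_DE libraries (circles) and the 2 tMCAO_MG_DE libraries (triangles), with a line at each group mean. Both occluded libraries lie above every sham library for the genes from Hspa1a to Stat3 and below every sham library for Gpr17, Egr1 and Yipf6.

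Heat shock chaperones rose as a group. Of 15 heat shock genes, 12 rose and none fell, with a median log2 fold change of 0.87, against 6.59% of all tested genes that rose and a median of -0.001. The inducible Hsp70 genes led. Hspa1a (ENSMUSG00000091971.3, GRCm38 chr17:34969190-34972156, minus strand, 1 exon) was measured at 7.46, 7.18, 8.23 and 5.87 CPM in the sham_MG_DE libraries and at 162.3 and 134 CPM in the tMCAO_MG_DE libraries. Both occluded values lay far above all 4 sham values, and the log2 fold change was 4.37 ± 0.16 (adjusted p = 8.6e-09). Hspa1b, the neighbouring copy, read 6.92, 8.87, 6.22 and 6.33 against 174 and 145.6 CPM (4.49 ± 0.22, adjusted p = 2.1e-07). The 2 copies are nearly identical, so the split of reads between them is uncertain. Hspa1l, the third Hsp70 gene of the cluster, rose by 3.84 ± 0.23 (adjusted p = 1.8e-06).

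The elements that heat shock factor 1 is known to bind are inverted repeats of GAA. The promoter sequences are shown as a description, and the part of this factor in the rises was not tested. The letters GAANNTTC, which read the same on both strands, occur within 250 bases before the start in 6.69% of the 32851 RefSeq promoter windows of GRCm38.p6. The list is counted in genes, which can have more than 1 window and so more chances of a match. The share of windows is therefore no background for the list. Of the 15 heat shock genes, 10 have a window and 6 of these hold the letters, namely Dnaja1, Hspa1a, Hspa1b, Hspb1, Hspd1 and Hspe1. All 6 rose, but so did 12 of the 15 genes of the whole list. Genes with a window but without the letters were not set against them, so whether the letters go with the rise was not tested. The longer form with 3 units, GAANNTTCNNGAA or TTCNNGAANNTTC, which contains the shorter form, was found in 0.466% of windows and in Hspd1 and Hspe1. The following stretches of 120 bases lie before the start, 5′ to 3′ on the gene's own strand, with the match in capitals. They cover chr17:34972197-34972316 (minus) for Hspa1a, chr17:34959279-34959398 (minus) for Hspa1b, chr5:135887766-135887885 (plus) for Hspb1 and chr1:55088005-55088124 (plus) for Hspe1.
Hspa1a: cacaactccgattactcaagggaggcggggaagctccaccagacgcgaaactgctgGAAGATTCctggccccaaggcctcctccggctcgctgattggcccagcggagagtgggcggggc
Hspa1b: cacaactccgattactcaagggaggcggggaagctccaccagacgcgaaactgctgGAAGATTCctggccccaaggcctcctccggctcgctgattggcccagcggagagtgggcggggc
Hspb1: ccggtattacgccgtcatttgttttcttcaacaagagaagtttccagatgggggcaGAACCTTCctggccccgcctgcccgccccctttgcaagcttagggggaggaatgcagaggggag
Hspe1: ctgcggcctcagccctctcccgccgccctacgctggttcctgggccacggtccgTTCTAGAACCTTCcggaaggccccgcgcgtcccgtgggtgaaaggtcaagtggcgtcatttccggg
The windows of Hspa1a and Hspa1b are the same at 247 of 250 positions, and the match lies 104 to 97 bases before the start in both. A match is a description of these letters and not a measured binding site.

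Among the smaller chaperones, Hspb1 (Hsp27, which holds unfolding proteins) stood at 3.14, 4.73, 3.66 and 4.28 CPM in sham_MG_DE and 16.4 and 17.6 in tMCAO_MG_DE, a log2 fold change of 2.099 ± 0.20 (adjusted p = 0.00011). Hsph1, a nucleotide exchange factor for Hsp70, went from 186 ± 41.9 (SD, n = 4) to 551 ± 121 (SD, n = 2) CPM (1.56 ± 0.21), and Bag3, a co-chaperone of Hsp70 in autophagy, from 7.07 ± 1.51 (SD, n = 4) to 18.4 ± 0.213 (SD, n = 2) CPM (1.38 ± 0.14). The mitochondrial chaperonin pair also rose, Hspe1 by 1.30 ± 0.14 and Hspd1 by 0.95 ± 0.12; the 2 genes lie head to head and overlap on opposite strands, so their counts may share reads. The abundant chaperones moved less, with Hsp90ab1 at 1314, 1239, 1292 and 1232 against 1967 and 1876 CPM (0.60 ± 0.09, adjusted p = 0.0016). Hspe1, Hspd1 and Hsp90ab1 lie outside the naming rule and were chosen after their values were seen. The count of risen chaperones was 10 without either tMCAO_MG_DE library, and the calls of Hspa1a, Hspa1b, Hspa1l, Hspb1, Hsph1 and Bag3 held under every alternative tried, with adjusted p of at most 0.022.

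Antioxidant and metal-handling genes rose in part. Of 11 genes of the NRF2 and iron list, 7 rose and 1 fell, with a median log2 fold change of 0.49. Hmox1, heme oxygenase 1, which breaks down heme, was at 4.92, 5.59, 4.39 and 4.73 CPM in sham_MG_DE and 55.95 and 60.4 in tMCAO_MG_DE, 11.8-fold higher (3.56 ± 0.38, adjusted p = 0.00021). Both groups were tight and far apart. Srxn1, which repairs oxidised peroxiredoxins, rose from 112 ± 11.03 (SD, n = 4) to 243 ± 16.7 (SD, n = 2) CPM (1.12 ± 0.11, adjusted p = 0.00013). Smaller rises were measured for Slc7a11, the cystine importer for glutathione synthesis (0.88 ± 0.21), and Txnrd1, thioredoxin reductase 1 (0.67 ± 0.12). Slc40a1, the iron exporter ferroportin, fell by 0.86 ± 0.19 (adjusted p = 0.013). Of 7 metallothionein and glucocorticoid target genes, 3 rose. Mt2, a metal-binding metallothionein, read 86.3, 69.1, 74.97 and 89.7 against 377 and 293 CPM (2.07 ± 0.20, adjusted p = 0.00012), and Mt1 rose by 1.42 ± 0.16. The calls of Slc7a11 and Slc40a1 ended in a fit of the 6 depleted libraries alone and without tMCAO_MG_DE 2. That of Slc7a11 also ended without sham_MG_DE 3 and sham_MG_CON 2 together. The calls of Txnrd1 and Slc40a1 ended without tMCAO_MG_DE 1. Under any alternative their adjusted p was at most 0.23.

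Astrocyte reactivity genes also rose after depletion. In the list of 13 pan-reactive astrocyte genes, 11 rose and none fell, and the median log2 fold change was 2.17. Gfap, the filament protein that defines reactive astrocytes (GRCm38 chr11:102887336-102900912), was at 179.9, 139, 137 and 149.8 CPM in sham_MG_DE and 646 and 648 in tMCAO_MG_DE, 4.27-fold higher (2.09 ± 0.19, adjusted p = 7.1e-05). The 2 occluded libraries were nearly equal and above all 4 sham libraries. Serpina3n, a secreted serine protease inhibitor, went from 18.7, 16.5, 26.8 and 24.4 to 203 and 244 CPM (3.37 ± 0.24, adjusted p = 8.5e-06). Lcn2, lipocalin 2, a secreted carrier of iron-binding siderophores, was scattered in sham_MG_DE at 4.27, 0.818, 2.499 and 1.25 CPM and reached 42.7 and 30.5 CPM after occlusion (4.06 ± 0.56, adjusted p = 0.0011). Timp1, an inhibitor of matrix metalloproteinases, read 0.27, 0.0909, 0.548 and 0.285 against 3.26 and 5.62 CPM (3.92 ± 0.64). Steap4, a metalloreductase, rose by 2.31 ± 0.37, and Vim, the second filament gene of the list, by 1.77 ± 0.25. Gfap and Vim lie outside the naming rule and were chosen after their values were seen. The count was 10 without either occluded library, and the calls of Serpina3n, Lcn2, Timp1 and Steap4 held under every alternative.

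Rises were found in both marker sets often used to sort reactive astrocytes. Of 12 A2 genes, which were described after ischaemia, 7 rose and none fell, with a median of 1.58. Slc10a6, a transporter of sulphated steroids, went from 0, 0.0455, 0.122 and 0.057 to 3.16 and 4.61 CPM. Its sham counts sum to 4, so the fitted log2 fold change of 6.01 ± 0.72 (adjusted p = 0.0009) rests on very few reads on that side. Tgm1, a transglutaminase, went from 0.108, 1.55, 0.61 and 0.627 to 15.1 and 12.7 CPM (4.199 ± 0.75), and Ptx3, a secreted pattern recognition protein, from 0.595, 0.364, 0.183 and 0.228 to 5.67 and 5.01 CPM (3.92 ± 0.75). Cd109, a surface protein that binds TGF-beta, rose by 2.85 ± 0.38 (adjusted p = 0.00093). These 4 calls held under every alternative. Of 11 A1 genes, described after an inflammatory stimulus, 7 rose and none fell, with a median of 1.03. Iigp1, an interferon-induced GTPase, read 3.24, 1.05, 0.731 and 0.741 against 8.04 and 21.2 CPM (3.33 ± 0.57, adjusted p = 0.0036), and Gbp2, a second GTPase of that kind, 3.73, 1.86, 2.93 and 1.14 against 7.28 and 17.01 CPM (2.33 ± 0.50). In both, tMCAO_MG_DE 2 was more than 2-fold above tMCAO_MG_DE 1, and the 2 calls ended without tMCAO_MG_DE 2 (highest adjusted p 0.17). The A1 count was 3 without tMCAO_MG_DE 1 and 0 without tMCAO_MG_DE 2, while the A2 count was 6 each time. Of 12 genes of resting astrocyte function, such as the water channel Aqp4 and the glutamate transporter Slc1a2, 1 rose, the transcription factor Sox9 (0.54 ± 0.12), and the median was 0.00. That count is near the background, since 6.59% of all tested genes rose. The Sox9 call ended without tMCAO_MG_DE 2 and in the fit of the 6 depleted libraries alone.

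Rises in the IL-6 family list included ligands, receptors and intracellular genes. Of 13 members, 7 rose and none fell, with a median of 1.33. Among the ligands, Lif, leukaemia inhibitory factor, was at 0.487, 0.591, 0.853 and 0.456 CPM in sham_MG_DE and 3.97 and 4.71 in tMCAO_MG_DE (2.86 ± 0.46, adjusted p = 0.0026). Il6 itself had 1 count in all 4 sham libraries and 36 counts in the 2 occluded ones, a ratio of library-scaled counts of 67.6 with an exact 95% interval of 11.4 to 2742 for counting error only. Among the receptors, Osmr, which binds oncostatin M, rose from 6.22, 7.59, 8.35 and 8.95 to 52.1 and 42.7 CPM (2.61 ± 0.19, adjusted p = 1.2e-05). Stat3, the transcription factor downstream, went from 51.9, 42.7, 46.8 and 46.9 to 108 and 128 CPM (1.33 ± 0.12, adjusted p = 6.4e-05); it overlaps Stat5a on the opposite strand and was chosen after its values were seen. Socs3, the feedback inhibitor that STAT3 induces, was at 5.41, 4.23, 4.82 and 4.45 CPM in sham_MG_DE and 26.3 and 23.1 in tMCAO_MG_DE (2.39 ± 0.31, adjusted p = 0.00081), the groups lying well apart. The calls of Lif, Osmr and Socs3 held under every alternative, and that of Il6 ended without either occluded library and with limma on log2(FPKM + 1).

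A STAT-type element, TTCNNNGAA, which reads the same on both strands, occurs in 7.02% of the promoter windows. Of the 11 members of the IL-6 list with a window, only Socs3 holds it, beginning 154 bases before the start. Here too the share counts windows and the list counts genes, so the shares do not compare. The stretch chr11:117969457-117969576 on the minus strand of GRCm38.p6 (RefSeq) is shown with the match in capitals, since Socs3 is the feedback gene of the group.
Socs3: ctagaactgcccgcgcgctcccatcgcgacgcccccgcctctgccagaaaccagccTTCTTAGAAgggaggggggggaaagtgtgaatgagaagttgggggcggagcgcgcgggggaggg

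Transcription factors of tissue injury followed. Of 11 tested genes of that list, 6 rose and none fell, with a median of 0.72. Atf3, a stress-induced factor of the ATF family, read 0.595, 1.36, 1.52 and 1.77 against 8.34 and 7.49 CPM (2.59 ± 0.48, adjusted p = 0.0054). Cebpd rose from 3.24, 2.91, 5.18 and 5.76 to 20.9 and 21.5 CPM (2.32 ± 0.38) and Cebpb from 2.05, 3.32, 0.975 and 3.19 to 10.3 and 8.86 CPM (1.99 ± 0.32); both encode factors of acute phase gene control. The cell cycle inhibitor Cdkn1a led the p53 targets, of which 4 of 11 rose and none fell, with a rise from 24.4, 32.8, 41.2 and 68.01 to 132 and 157 CPM (1.80 ± 0.30, adjusted p = 0.0029). Bcl3, a partner of NF-kB, rose by 2.43 ± 0.39, and Tnfrsf1a, the first TNF receptor, from 9.35, 6.82, 6.400 and 6.27 to 35.01 and 36.3 CPM (2.30 ± 0.20, adjusted p = 5.8e-05). With Tnfrsf1b, these were the 3 of 12 TNF and NF-kB genes that rose. In the hypoxia and glycolysis list 4 of 13 rose, led by Hk2, hexokinase 2 (1.46, 0.864, 2.01 and 1.54 against 5.17 and 4.15 CPM, 1.68 ± 0.23), and the median of that list was 0.11. The call of Tnfrsf1b ended without tMCAO_MG_DE 2. The other calls of the hypoxia and glycolysis list, Slc2a1, Pfkfb3 and Ldha, ended without either occluded library. Of the p53 targets, the call of Sesn2 ended in the same fits. That of Trp53inp1 ended without tMCAO_MG_DE 2 and that of Phlda3 without tMCAO_MG_DE 1. Both also ended in the fit of the 6 depleted libraries alone. The calls of Atf3, Cebpd, Cebpb, Cdkn1a, Bcl3, Tnfrsf1a and Hk2 held under every alternative. The count of risen injury factors was 4 without tMCAO_MG_DE 1 and 3 without tMCAO_MG_DE 2.

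Of the 11 tested genes along the axis that the series title names, 1 passed the threshold after depletion, against 12.4% of all tested genes, so the count is near the background. Il1r1, the interleukin-1 receptor that carries the signal, rose from 11.5, 5.36, 5.67 and 6.56 to 20.2 and 18.9 CPM (1.43 ± 0.28, adjusted p = 0.0069), and this call ended without tMCAO_MG_DE 1 (adjusted p = 0.059). Il1rn, the receptor antagonist, stood at 0.0541, 0.0455, 0.305 and 0 CPM in sham_MG_DE and 0.452 and 0.152 in tMCAO_MG_DE (1.60 ± 1.08, adjusted p = 0.36), and the groups overlapped. With microglia present, Il1rn went from 0, 0.0598 and 0.169 to 0.993, 2.69, 5.12 and 2.33 CPM (5.08 ± 0.87, adjusted p = 0.0039); the difference between the 2 responses had an adjusted p of 0.51. Of the agonists, Il1a read 0, 0.0455, 0.122 and 0.057 against 0.603 and 0.101 CPM (2.57 ± 0.80, adjusted p = 0.052) and Il1b 0.541, 0.5, 0.731 and 0.513 against 0.854 and 0.253 CPM (-0.04 ± 0.50, adjusted p = 0.97). Cxcl1, a chemokine that draws neutrophils, was 1.78, 3.41, 2.93 and 2.74 CPM in sham_MG_DE and 7.28 and 5.97 in tMCAO_MG_DE. Both occluded values lay above all 4 sham values, but the log2 fold change of 1.28 ± 0.50 missed the threshold (adjusted p = 0.11). With microglia present it was 3.74 ± 0.80 (adjusted p = 0.013), and the difference between the 2 responses had an adjusted p of 0.47. Icam1, the endothelial adhesion molecule for leukocytes, was 9.52, 17.2, 11.5 and 11.9 CPM in sham_MG_DE and 13.6 and 11.5 in tMCAO_MG_DE (0.00 ± 0.31), and Cxcl2 had a log2 fold change of 0.57 ± 0.74 (adjusted p = 0.66). Mpo, a neutrophil granule enzyme, read 0.0541, 1.96, 0.548 and 0.969 against 0.552 and 0.81 CPM, and Ly6g did not pass the filter.

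Among the chemokines, 4 of 14 tested rose, 1 fell and the median was 0.81. The CC chemokines Ccl2 and Ccl7, which draw monocytes, rose with Ccl6 and Ccl9. Ccl2 went from 1.73, 1.14, 1.28 and 1.596 to 5.32 and 7.44 CPM (2.15 ± 0.49, adjusted p = 0.014), and Ccl7 from 0.595, 0.227, 0 and 0.285 to 2.31 and 2.18 CPM (2.97 ± 0.63). Cxcl12, which holds CXCR4-bearing cells at vessels and niches, fell from 53.5, 54.8, 36.3 and 29.1 to 21.9 and 23.3 CPM (by 0.94 ± 0.26, adjusted p = 0.032). All 4 rises ended without tMCAO_MG_DE 1 and again without tMCAO_MG_DE 2. That of Ccl9 also ended with limma on log2(FPKM + 1) and without sham_MG_DE 3 and sham_MG_CON 2 together. The fall of Cxcl12 ended without either occluded library, without sham_MG_DE 1 and without sham_MG_DE 2. It also ended in the fit of the 6 depleted libraries alone and with limma on log2(FPKM + 1).

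Leukocyte markers were checked as whole lists. The summed level of 10 tested neutrophil genes was 4.97 to 41.2 CPM in sham_MG_DE and 8.96 to 19.5 in tMCAO_MG_DE. None of the 10 passed the threshold by edgeR, DESeq2 or limma, and 4 of them had a positive log2 fold change. Only Cxcr2, also a gene of the axis above, had an unadjusted p under 0.05, with a log2 fold change of 3.43 (edgeR adjusted p = 0.14). The granule gene Ltf was at 0 in both tMCAO_MG_DE libraries, as was the granule gene Elane, which did not pass the filter. S100a9 was at 0.919, 0.591, 16.5 and 0.798 CPM in sham_MG_DE and 6.18 and 0.962 in tMCAO_MG_DE, so the groups overlapped. The 8 tested monocyte genes summed to 7.58 to 11.3 CPM in sham_MG_DE and 31.1 to 33.1 in tMCAO_MG_DE. Clec4e, a further marker, was listed in the tMCAO tables only. Of these 8, 2 rose, Arg1 (arginase 1) and Ifitm3 (an antiviral membrane protein also made by vessels). Arg1 was at 0, 0.0909, 0 and 0.171 CPM in sham_MG_DE, where only 5 counts were found in all, and at 0.703 and 2.53 in tMCAO_MG_DE (4.46 ± 0.79, adjusted p = 0.0044), and the call ended without tMCAO_MG_DE 2. Ifitm3 rose by 1.74 ± 0.39, and its call ended without either occluded library. Of 11 lymphocyte genes 1 was tested, Cd4, at 0.865, 0.955, 1.402 and 1.43 against 2.31 and 2.38 CPM (adjusted p = 0.052), and limma called it higher at both pseudocounts. Globin and other erythroid genes summed to 1.03 to 31.6 CPM in sham_MG_DE and 5.87 to 7.43 in tMCAO_MG_DE. The part of blood cells in the responses above was not tested.

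None of the 20 homeostatic microglial genes passed the threshold in either direction by edgeR, DESeq2 or limma, and their median was 0.15. At an unadjusted p under 0.05 there were 3, all higher. Ctss, cathepsin S, read 4.38, 5.32, 14.1 and 2.62 CPM in sham_MG_DE against 6.88 and 9.57 CPM in tMCAO_MG_DE. Cx3cr1, the gene that drives the Cre, had a single count in the 2 occluded libraries together against 1.41, 1.23, 0.305 and 0 CPM in sham_MG_DE; the ratio of counts was 0.0324 with an exact 95% interval of 0.000806 to 0.188 for counting error only, and the fitted change missed the threshold (adjusted p = 0.28). Leaving out sham_MG_DE 3 and sham_MG_CON 2, the libraries highest in S100a8 and S100a9, brought 3 of the 20 past the threshold, Itgam (1.25, adjusted p = 0.0059), Ctss (0.99, adjusted p = 0.031) and C1qa (0.43, adjusted p = 0.047). Border macrophage genes, whose cells the Cre also reaches, gave 0 calls of 10 in either direction by the same tools with a median of -0.07, and 2 members had an unadjusted p under 0.05, 1 in each direction. Cd209f, which failed the filter, was at 0 in both tMCAO_MG_DE libraries. Mrc1, the mannose receptor, read 17.5, 12.5, 9.57 and 11.8 against 10.2 and 13.1 CPM, and Stab1, a scavenger receptor, 26.2, 32.4, 22.3 and 23.1 against 19.3 and 24.4 CPM. The tested border macrophage genes summed to 58.3 to 77.6 CPM in sham_MG_DE and 61.4 to 80.0 in tMCAO_MG_DE. These sums were not lower than with microglia present, where they were 22.3 to 33.9 CPM in sham_MG_CON and 39.5 to 64.1 in tMCAO_MG_CON.

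Genes of activated phagocytes rose in part. Of 20 members, 8 rose and none fell, with a median of 0.86. Spp1, osteopontin, rose from 9.73, 6.46, 6.83 and 8.49 to 34.7 and 54.4 CPM (2.50 ± 0.35, adjusted p = 0.0011); it overlaps another gene model on the same strand. Ch25h, the cholesterol 25-hydroxylase, went from 1.62, 1.18, 1.28 and 0.684 to 9.29 and 9.97 CPM (3.01 ± 0.52, adjusted p = 0.004). Cd44, a hyaluronan receptor that reactive astrocytes also make, went from 2.16, 1.46, 1.46 and 1.25 to 7.78 and 7.54 CPM (2.27 ± 0.43). Msr1, a scavenger receptor of phagocytes, rose by 1.64 ± 0.45 (adjusted p = 0.031). Members that did not pass included Lgals3, galectin 3, at 0.811, 1.05, 1.83 and 1.54 against 2.86 and 2.53 CPM (1.06 ± 0.39, adjusted p = 0.098), and Itgax, an integrin of activated microglia, at 0.379, 1.46, 0.975 and 0.741 against 0.402 and 0.658 CPM (-0.75 ± 0.78); both were chosen after their values were seen. The count of risen members was 3 without tMCAO_MG_DE 1 and 4 without tMCAO_MG_DE 2. The calls of Cd44 and Msr1 ended with limma on log2(FPKM + 1). The call of Msr1 ended in a fit of the 6 depleted libraries alone, without sham_MG_DE 2, without sham_MG_DE 4, without tMCAO_MG_DE 1 and without tMCAO_MG_DE 2. The highest adjusted p of these genes under any alternative was 0.25.

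Interferon-induced genes rose in part. All 20 had a positive log2 fold change, 11 rose past the threshold and the median was 1.36. Bst2, tetherin, which retains budding virus, read 1.24, 0.955, 1.52 and 0.855 against 3.62 and 4.05 CPM (1.75 ± 0.34, adjusted p = 0.0072). Rtp4, a chaperone of receptor transport, went from 1.298, 1.64, 2.19 and 1.31 to 5.17 and 4.66 CPM (1.61 ± 0.31), and the GTPase Gbp3 from 6.43, 7.41, 5.73 and 4.05 to 13.5 and 22.2 CPM (1.59 ± 0.34). This count depended on single libraries. It was 5 without tMCAO_MG_DE 1, 1 without tMCAO_MG_DE 2, 6 without sham_MG_DE 2 and 9 without sham_MG_DE 3 and sham_MG_CON 2. The calls of Bst2 and Gbp3 ended without tMCAO_MG_DE 2. The call of Rtp4 ended without tMCAO_MG_DE 1. Under any alternative their adjusted p was at most 0.15. Of 13 complement genes, 4 rose and the median was 0.37. C4b, a complement component that astrocytes and oligodendrocytes also make, rose from 27.4, 27.4, 35.5 and 32.2 to 85.1 and 104 CPM (1.63 ± 0.27, adjusted p = 0.0028) and its call held under every alternative, while the count was 3 without tMCAO_MG_DE 1 and 1 without tMCAO_MG_DE 2. C4b has a close copy, so its count is uncertain.

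Genes of the extracellular matrix and of the proteases that remodel it rose in part. Of 18 matrix genes, 10 rose and none fell, with a median of 0.88. Adamts1, a protease that cuts proteoglycans, was at 9.41, 8.82, 8.53 and 10.4 CPM in sham_MG_DE and 78.3 and 84.8 in tMCAO_MG_DE, 8.78-fold higher (3.13 ± 0.24, adjusted p = 1.5e-05). Adamts9, of the same family, went from 1.41, 2.000, 1.71 and 3.08 to 28.9 and 36.9 CPM (4.003 ± 0.47, adjusted p = 0.00043). Mmp3, stromelysin 1, was at 0.487, 0.0455, 0 and 0.114 CPM in sham_MG_DE and 4.52 and 12.4 in tMCAO_MG_DE (5.65 ± 0.98, adjusted p = 0.0055), and its 2 occluded libraries differed from each other by more than 2-fold. Tnc, tenascin C, rose by 2.94 ± 0.47. The count was 8 without tMCAO_MG_DE 1 and 5 without tMCAO_MG_DE 2. The call of Mmp3 ended without tMCAO_MG_DE 2. Over all alternatives the adjusted p of these genes reached 0.057 at most.

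In the endothelium, 6 of 11 activation genes rose and none fell, with a median of 0.84. Angpt2, a vessel-destabilising ligand of the receptor Tek, went from 1.35, 1.23, 1.58 and 1.08 to 7.83 and 8.304 CPM (2.62 ± 0.44, adjusted p = 0.0032). Sele, E-selectin, on which leukocytes roll, read 0.27, 0.0909, 0.183 and 0.057 against 0.954 and 1.32 CPM (2.88 ± 0.63, adjusted p = 0.012). Selp, P-selectin, had 2 counts in all 4 sham libraries and 34 in the 2 occluded ones, a ratio of 31.9 with an exact 95% interval of 8.18 to 274.1 for counting error only. Of 11 barrier genes, 2 rose, the tight junction gene Cldn5 (from 21.7, 20.9, 17.8 and 16.5 to 28.8 and 34.6 CPM, 0.72 ± 0.13) and the glucose transporter Slc2a1 (0.74 ± 0.15), and 1 fell, the thyroid hormone transporter Slco1c1 (by 0.82 ± 0.17). Among all tested genes, 6.59% rose and 5.84% fell. Growth factor genes rose in 5 of 15, among them Hbegf, an EGF receptor ligand, from 8.002, 7.14, 7.31 and 7.07 to 18.1 and 20.3 CPM (1.38 ± 0.22), and Igfbp3, an IGF carrier (1.23 ± 0.20). The calls of Hbegf and Igfbp3 held under every alternative, while those of Gdf15, Tgfb1 and Tgfbr2 ended without tMCAO_MG_DE 1. Those of Tgfb1 and Tgfbr2 also ended without tMCAO_MG_DE 2 and in the fit of the 6 depleted libraries alone. The count of risen activation genes was 1 without either occluded library. The calls of Sele, Selp, Cldn5, Slc2a1 and Slco1c1 ended without tMCAO_MG_DE 2. The calls of Sele, Selp and Slc2a1 ended without tMCAO_MG_DE 1. The call of Selp ended with limma on log2(FPKM + 0.1), with limma on log2(FPKM + 1) and without sham_MG_DE 2. The highest adjusted p of these genes under any alternative was 0.35.

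Falls were found in lists of neuronal activity and transmission. Of 16 immediate early genes, 4 fell and none rose, with a median of -0.61, against 5.84% of all tested genes that fell. All 4 belong to the Egr family of activity-induced zinc finger factors. Egr1 was at 451, 837, 411 and 428 CPM in sham_MG_DE and 205 and 209.5 in tMCAO_MG_DE, a fall of 1.36 ± 0.28 (adjusted p = 0.0093), and sham_MG_DE 2 stood above the other sham libraries. Egr2 went from 13.2, 46.1, 15.1 and 9.98 to 3.72 and 3.09 CPM (a fall of 2.64 ± 0.67, adjusted p = 0.023) with the same sham library highest. No immediate early gene was called without tMCAO_MG_DE 1 or without tMCAO_MG_DE 2, and 2 were called without sham_MG_DE 2. The calls of Egr1 and Egr2 ended without tMCAO_MG_DE 1 and without tMCAO_MG_DE 2. The call of Egr2 ended in a fit of the 6 depleted libraries alone. Under any alternative their adjusted p was at most 0.17.

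Of 13 glutamate and GABA receptor subunits, 5 fell and none rose, with a median of -0.35. Gria3, an AMPA receptor subunit, was at 362, 346, 363 and 356 CPM in sham_MG_DE and 197 and 227 in tMCAO_MG_DE (a fall of 0.75 ± 0.09, adjusted p = 0.00043). Gria2, the subunit that keeps AMPA receptors from passing calcium, fell from 890.2, 860.3, 903 and 847 to 579 and 653 CPM (by 0.51 ± 0.07, adjusted p = 0.0015). Both calls held under every alternative. Gria2 and Gria3 each overlap a small gene model on the same strand. Of 11 general neuronal genes, 2 fell, and their median was -0.27. Snap25, a synaptic fusion protein, went from 3519, 3087, 3171 and 3151 to 2664 and 2705 CPM (a fall of 0.27 ± 0.07, adjusted p = 0.031). That call ended without either occluded library, without sham_MG_DE 1 and in the fit of the 6 depleted libraries alone. It also ended without sham_MG_DE 3 and sham_MG_CON 2 together. The cortical and interneuron lists held no call by edgeR among 8 and 10 genes, with 3 and 1 at an unadjusted p under 0.05, and DESeq2 called 2 cortical genes lower. The cortical list includes Slc17a7, the cortical vesicular glutamate transporter, which was at 1466, 1287, 1277 and 1331 against 1306 and 1356 CPM.

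Among 13 striatal neuron genes, 1 rose and none fell, a count near the background of 6.59% of all tested genes that rose. Ppp1r1b (DARPP-32), a phosphatase inhibitor of dopamine-receptive neurons, was at 79.6, 84.2, 121 and 151 CPM in sham_MG_DE and 372 and 338 in tMCAO_MG_DE (1.70 ± 0.26, adjusted p = 0.0022), a call that held under every alternative. No other striatal gene passed the threshold, the median of the list was -0.21, and the dopamine receptor Drd1, chosen after its values were seen, read 7.79, 7.73, 5.18 and 6.56 against 6.08 and 5.77 CPM. Ppp1r1b overlaps a non-coding gene model on the opposite strand. With microglia present its log2 fold change was 0.35 ± 0.25 (adjusted p = 0.43), and the difference between the 2 responses had an adjusted p of 0.27.

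In the oligodendrocyte lineage, 3 of 10 precursor genes fell and 1 rose. The falls were those of Gpr17, Olig1 and Cspg4. The call of Cspg4 ended without tMCAO_MG_DE 1, and that of Olig1 without either occluded library. The Olig1 call also ended without sham_MG_DE 1, without sham_MG_DE 2, and without sham_MG_DE 3 and sham_MG_CON 2 together. Gpr17, a receptor of committed precursors that is lost as they mature, was at 38.9, 34.7, 32.2 and 30.9 CPM in sham_MG_DE and 10.8 and 12.1 in tMCAO_MG_DE, 2.99-fold lower (a fall of 1.58 ± 0.15, adjusted p = 7.1e-05). Both occluded libraries lay far below all 4 sham libraries, and the call held under every alternative. Gpr17 overlaps Lims2 on the opposite strand, so reads of the 2 cannot be told apart without strand. Bcas1, a marker of the step after it, rose from 66.3, 61.9, 54.5 and 66.01 to 97.9 and 115 CPM (0.78 ± 0.18, adjusted p = 0.014), a call that ended without either occluded library. Pdgfra, the growth factor receptor of early precursors, chosen after its values were seen, read 51.4, 43.6, 47.6 and 48.3 against 49.3 and 56.2 CPM. Of 10 myelin genes, 1 fell, Cnp (by 0.36 ± 0.08), and the median was -0.13. That count is near the background, since 5.84% of all tested genes fell. The Cnp call ended without tMCAO_MG_DE 2 and in the fit of the 6 depleted libraries alone.

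The other large falls by rule included Itm2a, a membrane protein (36.3, 36.7, 20.5 and 17.04 against 9.04 and 6.73 CPM, a fall of 1.81 ± 0.37), Tnfrsf25, death receptor 3 (4.22, 9.55, 6.03 and 7.01 against 1.96 and 2.08 CPM, a fall of 1.73 ± 0.43), and Syt10, a synaptotagmin (2.595, 3.18, 4.75 and 2.85 against 1.36 and 0.759 CPM, a fall of 1.65 ± 0.33). The calls of Itm2a, Tnfrsf25 and Syt10 ended without tMCAO_MG_DE 2. The calls of Itm2a and Tnfrsf25 ended without tMCAO_MG_DE 1. Over all alternatives the adjusted p of these genes reached 0.14 at most. Ube2v1, a ubiquitin-conjugating enzyme variant, fell from 69.6, 71.9, 46.8 and 64.6 to 7.58 and 9.72 CPM. It overlaps a read-through gene model on the same strand, and its count also jumped within tMCAO_MG_CON (8.11, 51.9, 17.1 and 7.76 CPM), so its value is uncertain. Its call ended without sham_MG_DE 2, without either occluded library, and without sham_MG_DE 3 and sham_MG_CON 2 together.

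The remaining lists are read against the 12.4% of all tested genes that were called. Of 14 cholesterol synthesis genes, 2 rose, Lss and Fdft1, and of 12 antigen presentation genes 2 rose, Psmb8 and Tap1. Of 15 cell cycle genes 1 rose, Mcm4. Among 11 pericyte and smooth muscle genes, the potassium channel gene Kcnj8 rose and Cspg4, which is also a precursor marker, fell. The 9 mitochondrially encoded genes and the 8 choroid plexus and ependymal genes held no call by edgeR, DESeq2 or limma, with 0 and 1 at an unadjusted p under 0.05. Each of the 7 calls named here ended without tMCAO_MG_DE 1. Those of Psmb8, Mcm4, Lss and Fdft1 also ended without at least 1 of the sham_MG_DE libraries and in the fit of the 6 depleted libraries alone. The same 4 ended without sham_MG_DE 3 and sham_MG_CON 2 together. Those of Psmb8, Tap1, Mcm4 and Fdft1 ended without tMCAO_MG_DE 2.

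Yipf6, a membrane protein of the Golgi (GRCm38 chrX:98936316-98949017, plus strand), fell in this comparison and not in the intact one. It was at 45.5, 38.8, 40.9 and 45.03 CPM in sham_MG_DE and 18.3 and 15.8 in tMCAO_MG_DE, a fall of 1.32 ± 0.09 (adjusted p = 8.5e-06). In the intact groups it was at 43.9, 44.1 and 44.6 CPM in sham_MG_CON and 49.1, 50.5, 50.7 and 51.3 in tMCAO_MG_CON (0.19 ± 0.08, adjusted p = 0.15). The difference between the 2 responses was -1.51 ± 0.12 (adjusted p = 0.00014), and it stayed past the threshold under every alternative, with adjusted p of at most 0.0061. Only the 2 tMCAO_MG_DE libraries were low.

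The response after depletion was then set against the response with microglia present, which shares no library with it. In the intact groups 1430 genes changed (8.44%), 870 higher (5.14%) and 560 lower (3.31%). This balance also moved with the tool: limma on FPKM called 1522 higher and 263 lower with a pseudocount of 0.1 and 1471 and 265 with a pseudocount of 1, and DESeq2 1091 and 901. Of the calls, 712 were shared, which is 33.8% of the calls after depletion and 49.8% of the intact calls. Over all tested genes, 8.44% were called in the intact comparison and 12.4% after depletion. Of the 712, 709 had the same direction. Of the genes called after depletion, 92.3% had the same sign in the intact comparison. Over all tested genes, the log2 fold changes of the 2 responses had a Pearson correlation of 0.485 and a Spearman correlation of 0.495. The median intact change of the genes that rose after depletion was 0.35 against 0.67 after depletion; these genes were chosen by the second value, so the 2 medians do not compare the responses. tMCAO_MG_CON 4 carries sham surgery in its treatment entry although its title says tMCAO. Without it the intact comparison gave 1241 calls and the difference between the responses 8. The intact count was 666 without sham_MG_CON 1, 564 without sham_MG_CON 3 and 935 without tMCAO_MG_CON 3.

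The difference between the 2 responses passed the threshold for 8 of 16940 genes (0.0472%), 7 of them lower after depletion, while 1647 genes had an unadjusted p under 0.05 and DESeq2 called 111. The 7 lower ones were Yipf6, described above, and 6 genes of immune cells or lipid handling, each of which rose with microglia present. Ccl12, a monocyte-drawing chemokine of mononuclear phagocytes, went from 0.0537, 0.179 and 0 to 7.12, 12.6, 14.1 and 11.98 CPM with microglia present and from 1.24, 0.409, 0.731 and 0.171 to 0.954 and 0.81 CPM after depletion, a difference of -6.65 ± 0.93 (adjusted p = 0.028). Its sham_MG_CON values of at most 0.179 CPM stand for about 3 counts or fewer, and sham_MG_DE reached 1.24 CPM. The size of this difference therefore rests on very few reads and on different starting levels. Lilrb4a, an inhibitory leukocyte receptor, went from 0.161, 0.179 and 0.282 to 4.97, 8.01, 10.8 and 6.84 CPM and from 1.51, 1.73, 1.58 and 0.912 to 3.21 and 2.89 CPM (difference -4.08 ± 0.51, adjusted p = 0.019), and its neighbour Lilr4b differed by -6.41 ± 0.88; the 2 have similar sequences and overlap a common gene model on the same strand. Lilrb4a also started lower in sham_MG_CON than in sham_MG_DE. The levels of Lilr4b are not given here, so its starting levels cannot be compared. Cd180, a Toll-like receptor homologue, differed by -3.06 ± 0.44, Tlr13, a sensor of bacterial RNA, by -1.64 ± 0.25, and Lpl, lipoprotein lipase, by -2.18 ± 0.31. Of these 6, only Lilrb4a also rose after depletion, by 1.08 ± 0.30 (adjusted p = 0.036). The call of this rise of Lilrb4a ended with limma on log2(FPKM + 1) and in a fit of the 6 depleted libraries alone. It also ended without sham_MG_DE 1, without sham_MG_DE 3 and without sham_MG_DE 4. Leaving out tMCAO_MG_DE 1, tMCAO_MG_DE 2, or sham_MG_DE 3 and sham_MG_CON 2 together, ended it as well. Lpl was at 12.1, 16.7, 10.3 and 10.3 CPM in sham_MG_DE and 8.24 and 7.39 in tMCAO_MG_DE, against 15.1, 9.45 and 9.83 and 29.8, 32.3, 40.2 and 28.9 CPM with microglia. Lingo3, a neuronal leucine-rich repeat protein, moved the other way, from 31.7, 35.5, 31.4 and 37.2 to 52.2 and 53.1 CPM after depletion against 28.3, 26.3 and 27.9 and 23.5, 22.8, 25.1 and 26.6 CPM with microglia (difference 0.80 ± 0.12, adjusted p = 0.04). Tlr13 lies outside the naming rule and was named because the count is small. The number of genes whose responses differed was 3 without tMCAO_MG_DE 1, 5 without tMCAO_MG_DE 2, 1 without sham_MG_DE 3, 15 without sham_MG_DE 1, 5 without sham_MG_DE 2, 2 without sham_MG_CON 1 and 3 without sham_MG_CON 3. Under each of these alternatives Yipf6 was among them.

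**Figure D2:**
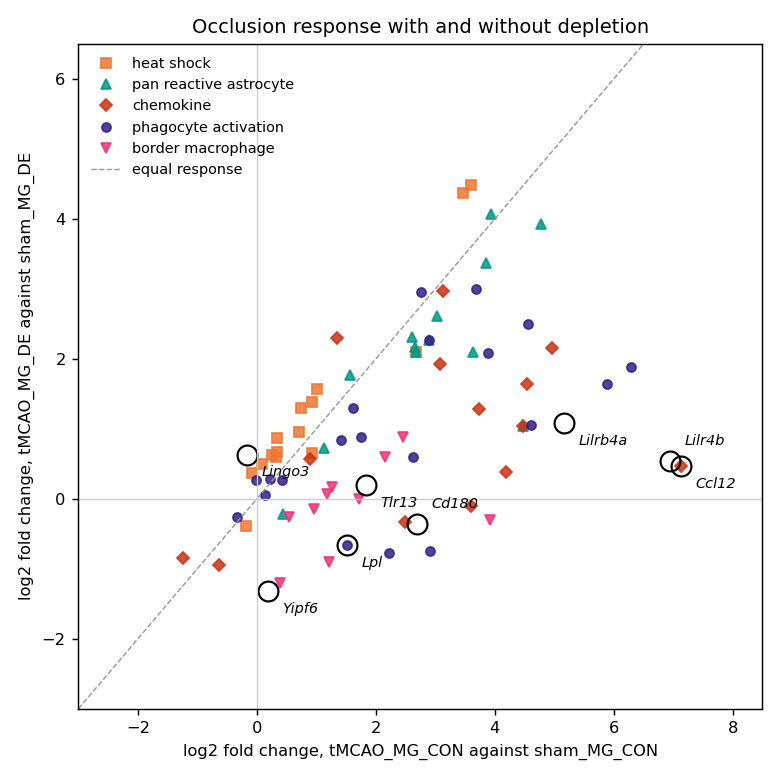
Log2 fold change of occlusion with microglia present (x axis) and after depletion (y axis) for the tested members of 5 gene lists, with the 8 genes whose responses differed past the threshold ringed. Most chaperones lie near or above the dashed line of equal response, while many chemokine and phagocyte members lie below it, Ccl12 and Lilr4b farthest.

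The gene lists are given for both responses side by side, and differences between lists were not tested. Of the 15 chaperones, 12 rose after depletion and 11 with microglia, with medians of 0.87 and 0.71, and the IL-6 list had 7 and 8 of 13. The pan-reactive astrocyte list had 11 and 12 of 13, with medians of 2.17 and 2.90. Gfap rose by 2.09 after depletion and by 3.63 with microglia; sham_MG_DE at 179.9, 139, 137 and 149.8 CPM was already above sham_MG_CON at 51.02, 91.4 and 63.4, and the difference between the responses missed the threshold (adjusted p = 0.089). The interferon list had 11 and 16 of 20. Phagocyte activation genes had 8 and 15 of 20, with medians of 0.86 and 2.42, chemokines 4 and 10 of 14, with medians of 0.81 and 3.37, and border macrophage genes 0 and 5 of 10. The border macrophage genes started from a higher summed level in sham_MG_DE (58.3 to 77.6 CPM) than in sham_MG_CON (22.3 to 33.9 CPM). Msr1 was 0.268, 0.179 and 0.169 CPM in sham_MG_CON and 6.62, 18.4, 14.8 and 10.96 in tMCAO_MG_CON against 1.35, 0.5, 1.83 and 0.798 and 2.71 and 4.15 CPM after depletion (difference -4.25 ± 0.76, adjusted p = 0.089), and Ccl2 was 0.215, 0 and 0.226 and 1.82, 5.56, 8.88 and 3.298 CPM against 1.73, 1.14, 1.28 and 1.596 and 5.32 and 7.44 CPM (difference -2.81 ± 0.91, adjusted p = 0.34). For both genes the sham_MG_DE values lay above the sham_MG_CON values, so the 2 fold changes started from different levels. Among the members of these lists, Ccl12 and Lpl alone passed the test of the difference.

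**Figure D3:**
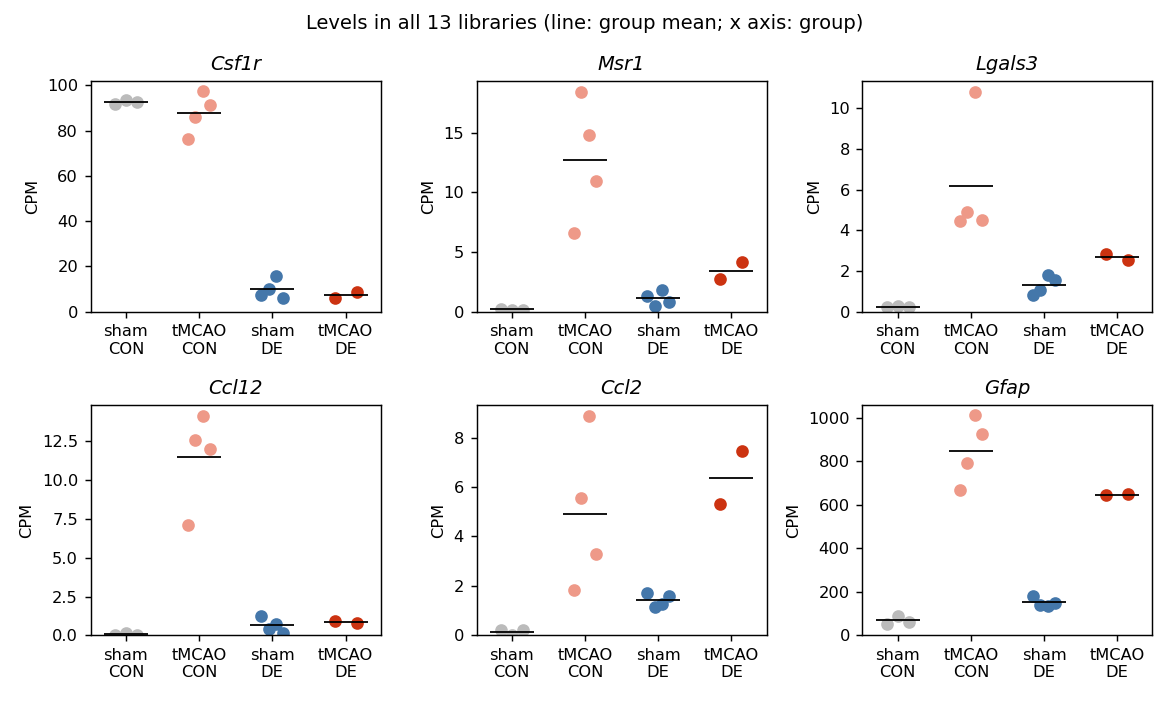
Level in CPM of 6 genes in every library of the 4 groups, with a line at each group mean. Csf1r is low in all depleted libraries, Msr1, Lgals3 and Ccl12 reach their highest levels in tMCAO_MG_CON, and Ccl2 and Gfap are raised by occlusion in both pairs of groups.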

How the data were processed

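The 13 brain libraries were paired-end TruSeq RNA libraries, per the labels' protocols. The authors deposited 1 table per group holding, for each gene in each library, a whole-number count and an FPKM. The tools were Cufflinks 2.1.1 and Cuffdiff on mm10, per the submitters' processing notes. No aligner, annotation, counting tool or use of strand was given in the sources used here. If strand was not used, genes that overlap on opposite strands cannot be told apart.

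The counts held 22110 entries in the sham and 22160 in the tMCAO tables, and 21056 genes in all of them were used. Genes listed for just the sham groups (1002) or just the tMCAO groups (1053), and 24 names turned into dates, were not tested, and 31 symbols with more than 1 entry were summed. Counts were scaled by TMM and filtered by filterByExpr, which removed 4116 genes. A model of 4 group means over 13 libraries was fitted with edgeR 4.0.16 (quasi-likelihood, two-sided) in R 4.3.3, because tMCAO_MG_DE has 2 libraries. The common biological coefficient of variation was 15.2%. The standard error was taken as the size of the log2 fold change over the root of its F statistic. In simulated data on 16940 genes for this comparison, 91% of 2-fold and 100% of 4-fold changes were recovered, and 3.535% of calls were false. The simulation gave every gene the same common dispersion and placed changes only in genes above a set mean CPM. It therefore does not give the recovery of genes at low level or the share of false calls where the spread differs between genes. Intervals and the floor of 3 counts cover counting error only.

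Members and lists were chosen with earlier results of these data known. Named genes were the series' axis, up to 12 rises and 12 falls with groups that did not overlap and a mean of at least 1 FPKM, up to 5 called members per list (otherwise the 3 highest), and up to 6 genes per direction of the difference between responses. Gene models without a name were left out. Some genes that the rule named are not reported here. Alternatives were DESeq2 1.42.0, its size factors, no filter, limma 3.58.1 on log2 FPKM with pseudocounts of 0.1 and 1, the 6 depleted libraries alone, a replicate block and each library left out; leaving out sham_MG_CON 2 and sham_MG_DE 3 together, and all alternatives of the intact comparison, were added after the data were seen. Every pair of libraries within sham_MG_DE or tMCAO_MG_DE differed by more than sampling noise, with a chi-square per gene of at least 11.34. Pairs within the intact groups were not checked.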

Additional observations from a re-analysis of the deposited data

Results flagged for a closer look

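In 13 of the 167 named genes tested, 1 of the 4 sham_MG_DE libraries stood apart from the other 3 in level, by the ratio of its gap to the whole range. Chance flags about 1 in 20 genes. In sham_MG_DE 3 these were blood genes, namely S100a9 at 16.5 CPM, Hbb-bs at 16.2, Hba-a1 at 5.67, Hba-a2 at 5.36 and Cxcr2 at 0.183 CPM; the 2 alpha globin genes are close copies. In sham_MG_DE 2 they were the activity genes Egr1 at 837 CPM and Egr2 at 46.1 CPM, with Otud5, a deubiquitinase, at 70.0 CPM. In sham_MG_DE 1 they were Hspa1l at 3.46 CPM, Iigp1 at 3.24, Syt1 at 2250 and Fkbp1a at 139 CPM. In sham_MG_DE 4 it was Il6 at 0.057 CPM, which is 1 count.

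The response to occlusion differed with and without microglia for 8 genes by the test of the difference on the log2 scale. It was lower after depletion by -1.51 for Yipf6, -6.65 for Ccl12, -6.41 for Lilr4b, -4.08 for Lilrb4a, -3.06 for Cd180, -2.18 for Lpl and -1.64 for Tlr13, and higher by 0.8 for Lingo3. Of these, Yipf6 alone passed under every alternative. The sizes for Ccl12 and Lilrb4a rest on low sham_MG_CON levels, as given above.

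Genes listed in the tMCAO tables only were outside the test, and no sham value was read for them. Fga, fibrinogen alpha, had 144 counts in the 2 tMCAO_MG_DE libraries together (78 and 66), against 1, 26, 4 and 5 in tMCAO_MG_CON. Csf3, the neutrophil growth factor G-CSF, had 35 counts and the eosinophil chemokine Ccl11 had 27. Relatives of Serpina3n were also listed, Serpina3m with 63 counts, Serpina3i with 35 and Serpina3f with 31, and close copies make their split uncertain.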

How the results depend on the processing

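The 2106 calls after depletion became 1341 with a replicate block and 1137 with only the 6 depleted libraries, and ranged from 453 to 2096 when single libraries were left out. Of the other alternatives, DESeq2 gave 2633, its size factors 2110, no filter 1862, and limma 2141 and 2111 with pseudocounts of 0.1 and 1. Without sham_MG_CON 2 and sham_MG_DE 3 there were 1566. The share of calls that were higher was 52.99%, 63.05% and 65.75% with limma at the 2 pseudocounts, and 48.2% with DESeq2. Of 125 named genes called, 47 were called under every alternative, and none of the tested ones changed direction. The 8 differences between responses became 111 with DESeq2, 23 and 32 with limma at pseudocounts of 0.1 and 1, 2 with a replicate block, 1 without sham_MG_CON 2 and sham_MG_DE 3, and 1 to 15 without single libraries. The 1430 intact calls ranged from 564 to 1814 without single libraries. The cause was not tested. Whether libraries with the same replicate number belong together is not known. The deviations of same-numbered depleted libraries from their group means correlated at 0.106 and 0.046. With 2 occluded libraries these deviations mirror each other (-0.106 and -0.046 for the crossed pairs), so the check cannot decide this. The block ended 17 of the named calls, among them those of Cxcl12, Msr1, Slc7a11, Snap25, Cnp, Lss and Tnfrsf25. With 2 occluded libraries, of which 1 left out leaves 1 assumed to vary like the other groups, the spread after depletion is poorly known.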
